A study of Mus musculus with 18 samples.

Results

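Nkx2-5, Gata4, Gata5, Tbx5, Tbx20, Hand1, Hand2, Mef2c and Isl1, 9 genes of the 31053 in the count matrices, encode the transcription factors with which the embryonic heart is usually described, and were taken by gene symbol. Their RNA was counted in 18 single-cell RNA-seq libraries (10x Genomics 3′ v3 chemistry), each labelled as the dissociated cells of a single mouse embryo at embryonic day 8.5 (E8.5). All embryos were on the 129S4/SvJae background. By the labels 7 libraries were wildtype (WT), 3 Dnmt1 null, 4 Dnmt3a null and 4 Dnmt3b null, a pair of the last sharing most of their barcodes and counted as 1 sample below, and null embryos are called KO. KO and WT embryos came from matings of heterozygous mice and no agent was given. The mutation was present in every tissue, including the extraembryonic cells that each library also held, and the labels do not say from which of the mutant lines a WT embryo came. Dnmt1 mutants are known to be delayed in their development, so genotype and developmental stage cannot be told apart in that group.

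The libraries held 162336 barcodes called as cells by Cell Ranger, of which 128881 had at least 1500 mouse unique molecular identifiers (UMIs, counts of original RNA molecules). After limits on mitochondrial and ribosomal counts and removal of predicted doublets, 109962 cells were used, between 1366 and 12716 per library, with 36606912 to 233594354 UMIs per library and a median of 4452 to 59714 UMIs per cell. The members had between 13030 UMIs (Tbx5) and 234941 UMIs (Hand1) in these cells. Dnmt3b KO libraries 1 and 2 shared 12249 barcodes, 86.5% and 79.3% of each, where the next pair of libraries shared 133. They were therefore added together as 1 sample, which left 17 samples and 3 for Dnmt3b KO. Dnmt1 RNA was at 14.9 to 15.7 counts per 1000000 UMIs (CPM) in Dnmt1 KO against 83.2 to 116 in WT, and Dnmt3a RNA at 7.39 to 11.8 CPM in Dnmt3a KO against 23.1 to 34.9 in WT. Dnmt3b RNA did not separate Dnmt3b KO (57.4 to 68.3 CPM) from WT (35.3 to 87.2 CPM), so these 3′ counts do not check that label. The libraries labelled Dnmt3b KO 11 and 12 also had less Dnmt3a RNA than any WT library (15 and 7.56 CPM), the latter inside the Dnmt3a KO range. The genotype of the library labelled Dnmt3b KO 12, 1 of the 3 Dnmt3b KO samples, is therefore in doubt. It was also the only library counted with Cell Ranger 5.0.0, and whether that bears on its values was not tested. Without this library 0 members were again called over the whole embryo in Dnmt3b KO, and results that changed are given where they occur. Counts of Y-linked genes marked 1 of 7 WT, 3 of 3 Dnmt1 KO, 4 of 4 Dnmt3a KO and 2 of 3 Dnmt3b KO samples as male. Sex and genotype thus nearly coincide in Dnmt1 and Dnmt3a KO and cannot be well told apart there. Within a group sex varied only in WT and Dnmt3b KO, so fits with the share of Y-linked counts as a covariate separate them weakly.

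The heart is the earliest organ of the embryo to work, and at E8.5 it is a tube of beating muscle that grows by adding progenitor cells at its ends. NKX2-5, the GATA zinc finger proteins, the T-box proteins TBX5 and TBX20, and MEF2C bind together at the genes of the contractile apparatus, while the basic helix-loop-helix proteins HAND1 and HAND2 pattern the chambers and ISL1 marks progenitors of the second heart field, which lie behind the tube. None of these factors belongs to the heart alone: HAND1 acts in trophoblast and extraembryonic mesoderm, GATA4 in the yolk sac endoderm, MEF2C in vessels, neural crest and blood cells, and ISL1 in foregut endoderm and motor neurons. DNMT1 copies methylation of CG dinucleotides to the new strand when DNA is replicated, and DNMT3A and DNMT3B place new methylation.

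Levels in WT embryos are given as CPM within a class of cells, a class being 1 or more clusters whose cells expressed fixed marker genes. Names end in -like because they come from such markers, and clusters without a clear name are called by their leading genes. No member was a marker or took part in the clustering. With 3′ counts, levels are compared between classes for the same gene and not between genes. Levels across classes are a description with no test, since the classes were made from the same cells.

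Nkx2-5, a homeodomain factor of heart muscle (mm10 chromosome 17, positions 26838664 to 26845009, minus strand), was at 343 ± 48.2 CPM (SD, n = 7 embryos) in cardiomyocyte-like cells. It followed in the Sfrp5/Lefty2 cluster, at 56.6 ± 14.6 CPM (n = 6), and in gut endoderm-like cells at 21.1 ± 3.79 CPM (n = 7). Leading genes of the Sfrp5/Lefty2 cluster included Sfrp5, Lefty2, Wnt2, Tgfb2, Gata6, Myocd and the head mesenchyme marker Prrx2. By markers it scored highest for head mesenchyme, then for pharyngeal mesoderm, and a tie in its leading genes left it unnamed. The ranges of these 3 classes did not overlap, and no other class exceeded 10 CPM.

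Among the GATA factors, Gata4 (chromosome 14, 63198922 to 63271692, minus strand) was at 80.8 ± 6.67 CPM in cardiomyocyte-like cells, 54.5 ± 16.6 in the Sfrp5/Lefty2 cluster and 50.6 ± 16.1 in allantois-like cells, levels whose ranges overlapped from each to the next. It was also at 32 ± 5.49 CPM in ExE endoderm-like cells (extraembryonic endoderm, led by Ttr and Apoa1), where the other 8 members were at 1.2 CPM or less. Gata5 (chromosome 2, 180325133 to 180334699, minus strand) was at 122 ± 26.7 CPM in cardiomyocyte-like cells, 77 ± 21.7 in the Sfrp5/Lefty2 cluster and 66.6 ± 17.9 in allantois-like cells, again with overlapping ranges.

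Of the T-box factors, Tbx5 (chromosome 5, 119832668 to 119885219, plus strand), which acts in the inflow part of the heart tube and later in the forelimb, was at 81.4 ± 11.6 CPM in cardiomyocyte-like cells and 47.8 ± 13.1 in the Sfrp5/Lefty2 cluster, without overlap, and at 10.5 CPM in allantois-like cells. Tbx20 (chromosome 9, 24718138 to 24774303, minus strand), a repressor and activator in heart muscle and valves, was at 156 ± 11.2 CPM in cardiomyocyte-like cells. Its next levels were 86.1 ± 8.3 CPM in ExE mesoderm-like cells and 79.4 ± 22.7 in allantois-like cells, which overlapped with each other, followed by the Sfrp5/Lefty2 cluster at 34 ± 7.48.

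The HAND factors had another order. Hand1 (chromosome 11, 57828705 to 57832818, minus strand) was at 739 ± 118 CPM in ExE mesoderm-like cells, 274 ± 46.7 in allantois-like cells and 137 ± 31.3 in the Hoxd1/Cdx4 cluster, against 67.4 ± 27.8 in cardiomyocyte-like cells. Hand2 (chromosome 8, 57320983 to 57324633, plus strand) was at similar levels with overlapping ranges in the Sfrp5/Lefty2 cluster (124 ± 13.7 CPM), the Hoxd1/Cdx4 cluster (122 ± 16.1), allantois-like (102 ± 15.8), ExE mesoderm-like cells (91.6 ± 13.8), the Lhx1/Osr1 cluster (86.6 ± 17.8) and cardiomyocyte-like cells (83.9 ± 16.7).

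Mef2c, a MADS-box partner of the other factors at muscle genes (chromosome 13, 83504034 to 83667080, plus strand), was at 523 ± 174 CPM in cardiomyocyte-like cells and 200.2 ± 61 in the Sfrp5/Lefty2 cluster, followed by immune-like (165 ± 28.3, n = 3), endothelium-like (67.4 ± 11.6) and neural crest-like cells (53.4 ± 33.1). The spread of Mef2c among WT cardiomyocyte-like samples was wide, from 228 to 744 CPM. Isl1 (chromosome 13, 116298281 to 116309689, minus strand) was highest in the Sfrp5/Lefty2 cluster at 118 ± 21.1 CPM, then in allantois-like (69.3 ± 26.2), gut endoderm-like (63.2 ± 13.3) and pharyngeal mesoderm-like cells (34.5 ± 20.3), and was at 18.6 ± 12.9 CPM in cardiomyocyte-like cells. The mean of each of the 9 members was above 30 CPM in the Sfrp5/Lefty2 cluster, and Isl1 and Hand2 were higher there than in cardiomyocyte-like cells.

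**Figure D1:**
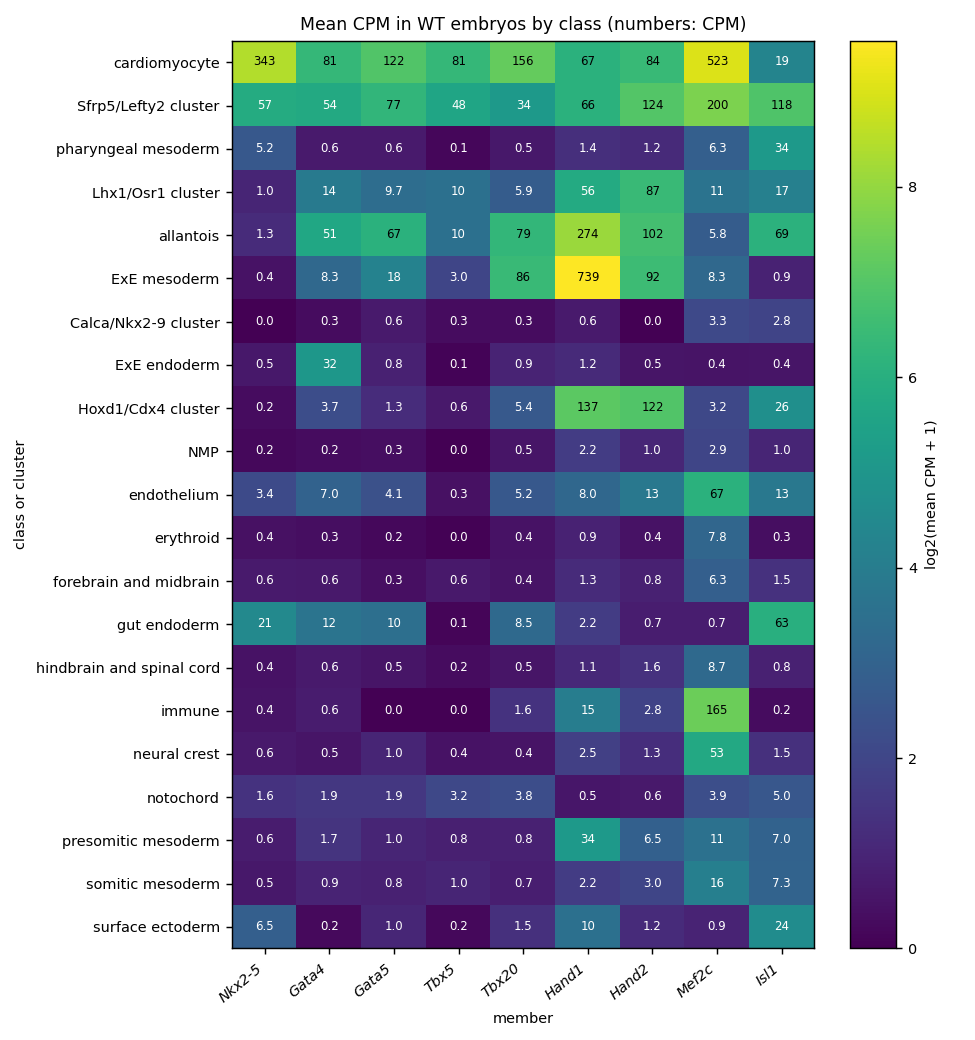
Mean CPM of each member (columns) in each class or cluster of WT embryos reported here (rows), with the number printed in each cell and the colour on a log2(mean CPM + 1) scale. Read within a gene, the cardiomyocyte row is the highest shown for Nkx2-5 (343 CPM), Gata4, Gata5, Tbx5, Tbx20 and Mef2c, the Sfrp5/Lefty2 row for Hand2 and Isl1 (118 CPM), and the ExE mesoderm row for Hand1 (739 CPM).

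To set cells of unequal depth side by side, each cell was thinned to 5000 UMIs. In WT cardiomyocyte-like cells, Nkx2-5 then had at least 1 UMI in 82.1% ± 5.24 of cells, Mef2c in 86.7% ± 13.2, Tbx20 in 51.7% ± 6.73, Gata5 in 43.6% ± 5.87, Gata4 in 32.3% ± 5.1, Hand2 in 32% ± 3.32, Tbx5 in 31.8% ± 5.1, Hand1 in 20.1% ± 6.33 and Isl1 in 4.89% ± 5.03 (SD, n = 7). Before thinning, Nkx2-5 was seen in 92.9% of these cells. In erythroid-like cells, which should lack these factors, the thinned share was 0.555% or less for each member but Mef2c, which was at 3.27% ± 1.79, and the Nkx2-5 share there was 1.02% before thinning. The median depth was 29110 UMIs in cardiomyocyte-like and 39020 in erythroid-like cells, and 111 and 780 cells respectively were left out as too shallow. A WT cardiomyocyte-like cell held UMIs of 3.85 ± 0.245 of the 9 members after thinning, and 83.7% ± 5.42 of such cells held 3 or more. The number was 2.41 ± 0.266 in the Sfrp5/Lefty2 cluster, 2.17 ± 0.153 in allantois-like, 1.83 ± 0.133 in ExE mesoderm-like and 0.0475 ± 0.0235 in erythroid-like cells.

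Over the whole embryo, Nkx2-5 was the member that fell in Dnmt1 KO. Its level was 3.01, 0.888 and 3.76 CPM in the 3 Dnmt1 KO embryos, against a lowest of 8.63, a median of 9.93 and a highest of 12.6 CPM in the 7 WT embryos. Every Dnmt1 KO embryo was below every WT embryo, and the log2 fold change was -1.98 (SE 0.33, adjusted p = 0.000178 by edgeR's quasi-likelihood test with Benjamini-Hochberg adjustment over 18763 genes). A gene counts as called here when its adjusted p was under 1% and its change at least 2-fold, a rule by which 14.1% of all genes were called in Dnmt1 KO. In the Dnmt3a mutants it called 0.219% and in the Dnmt3b mutants 1.82%. By that rule 1 of 9 members was called in Dnmt1 KO and 0 of 9 in Dnmt3a and Dnmt3b KO, where 1 and 2 members had an unadjusted p under 0.05 and DESeq2 also called 0. Counts at an unadjusted p, here and below, have no share of all genes beside them and are not read as an excess. In sums over a whole embryo, fewer cells of a type and less RNA per cell cannot be told apart.

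**Figure D2:**
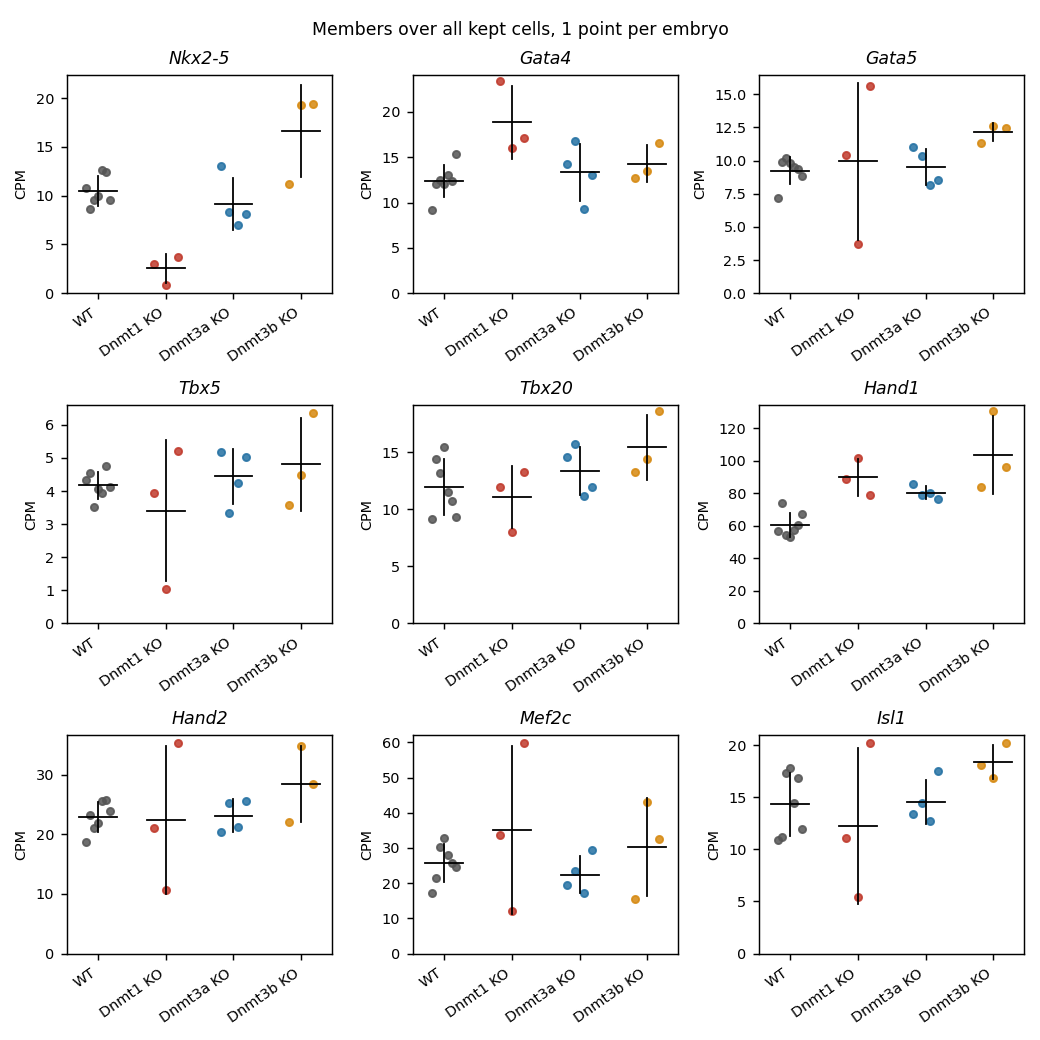
CPM of each member over all kept cells, with 1 point per embryo, a horizontal bar for the group mean and a vertical bar for the SD (groups of 7, 3, 4 and 3 samples from left to right). The 3 Dnmt1 KO points for Nkx2-5 lie between 0.888 and 3.76 CPM, all below the WT points, and the Dnmt1 KO points are widely spread for Gata5, Tbx5, Hand2, Mef2c and Isl1.

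Hand1 and Gata4 were higher in Dnmt1 KO without reaching 2-fold. Hand1 was at 88.8, 102 and 78.8 CPM in the Dnmt1 KO embryos and between 53 and 74.3 (median 57.5) in WT, with no overlap, a log2 fold change of 0.63 (SE 0.13) and an adjusted p of 0.00139 by edgeR. Without the extraembryonic and erythroid classes the value for Hand1 turned to -0.33 (edgeR adjusted p = 0.128). Gata4 was at 23.4, 16 and 17.1 CPM against 9.21 to 15.4 (median 12.4) in WT, also without overlap, with a log2 fold change of 0.68 (SE 0.15, edgeR adjusted p = 0.00241). Gata4 kept its direction without these classes, at 0.50 (edgeR adjusted p = 0.059).

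The other 6 members overlapped WT in Dnmt1 KO. The share of all genes whose ranges do not overlap is not given, so this count says nothing particular to the members. Tbx20 was at 12, 8.02 and 13.2 CPM against a WT range of 9.17 to 15.5. Mef2c was at 33.7, 12.1 and 59.7 CPM against 17.3 to 32.8, and Isl1 at 11.1, 5.42 and 20.2 against 10.9 to 17.8. Gata5, Tbx5 and Hand2 showed the same arrangement of the embryos: Dnmt1 KO embryo 2 was lowest and embryo 3 highest for each, and embryo 2 was also the lowest of its group for Nkx2-5, Gata4, Tbx20, Mef2c and Isl1 while it was the highest for Hand1. Log2 fold changes of these 6 members lay between -0.24 (Tbx5) and 0.53 (Mef2c) in Dnmt1 KO. Isl1, at -0.15 with all cells, was at a log2 fold change of 0.46 (edgeR adjusted p = 0.00691) without the extraembryonic and erythroid classes.

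In Dnmt3a KO, log2 fold changes lay between -0.22 (Mef2c) and 0.40 (Hand1). Hand1 was at 85.7, 79.1, 80.3 and 76.8 CPM in the 4 embryos, all above the WT range of 53 to 74.3, and did not pass (edgeR adjusted p = 0.227). In Dnmt3b KO all 9 values were positive, from 0.16 (Tbx5) to 0.73 (Hand1), and all comparisons used the same 7 WT embryos. Their median was 0.33, where the median of all genes was -0.013. The share of all genes with a positive value is not given. Hand1 was at 84.1, 131 and 96.2 CPM, with no overlap with WT and an adjusted p of 0.00259 by edgeR, and fell short of 2-fold. Without the library labelled Dnmt3b KO 12 the log2 fold change of Hand1 was 0.56 (edgeR adjusted p = 0.0632), and with the replicate number as a block it was 0.41 (adjusted p = 0.619). Without that library Mef2c was at -0.13 (edgeR adjusted p = 0.987), so that not all 9 values stayed positive. Nkx2-5 was at 11.2, 19.4 and 19.5 CPM in Dnmt3b KO, with a log2 fold change of 0.63 (SE 0.28, edgeR adjusted p = 0.256).

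**Figure D3:**
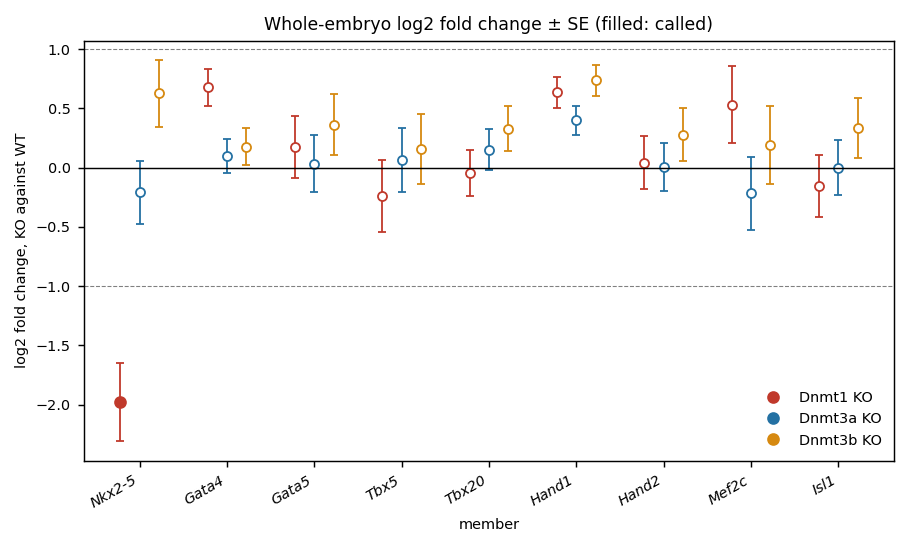
Whole-embryo log2 fold change of each member in each KO group against WT, with bars of 1 SE from edgeR, filled points for called members and dashed lines at a 2-fold change. The filled point is Nkx2-5 in Dnmt1 KO at -1.98, and the 9 Dnmt3b KO points lie above 0.

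The promoters of 3 members are shown because the enzymes removed in these embryos methylate CG dinucleotides and the members differ widely in how many they carry: Nkx2-5, which fell over the whole embryo, and Isl1 and Mef2c, which were higher in ExE mesoderm-like cells of Dnmt1 KO as described further on. In other classes of Dnmt1 KO the direction differed: Nkx2-5 was higher in endothelium-like cells, and Mef2c was lower in endothelium-like and immune-like cells. The Mef2c window shown has fewer CG than those of its other annotated starts. Each is 300 bases of RefSeq's GRCm38.p6 (mm10), 250 before to 50 after an annotated start, read 5′ to 3′ on the gene's strand with each CG in capitals. Nkx2-5 is chr17:26841516-26841815 on the minus strand with 9 CG, Isl1 chr13:116309639-116309938 on the minus strand with 37 CG, and Mef2c chr13:83503784-83504083 on the plus strand with 1 CG.
Nkx2-5: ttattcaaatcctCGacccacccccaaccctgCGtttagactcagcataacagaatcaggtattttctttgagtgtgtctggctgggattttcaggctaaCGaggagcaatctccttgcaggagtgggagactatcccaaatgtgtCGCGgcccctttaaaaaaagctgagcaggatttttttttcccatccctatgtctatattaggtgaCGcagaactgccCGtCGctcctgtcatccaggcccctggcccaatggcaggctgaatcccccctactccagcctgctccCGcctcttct
Isl1: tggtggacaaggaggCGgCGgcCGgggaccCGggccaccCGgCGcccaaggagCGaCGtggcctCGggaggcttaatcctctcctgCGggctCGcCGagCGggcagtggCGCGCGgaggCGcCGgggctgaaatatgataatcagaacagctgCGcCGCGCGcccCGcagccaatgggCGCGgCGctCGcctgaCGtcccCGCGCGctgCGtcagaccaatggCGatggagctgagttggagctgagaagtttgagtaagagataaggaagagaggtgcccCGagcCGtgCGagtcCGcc
Mef2c: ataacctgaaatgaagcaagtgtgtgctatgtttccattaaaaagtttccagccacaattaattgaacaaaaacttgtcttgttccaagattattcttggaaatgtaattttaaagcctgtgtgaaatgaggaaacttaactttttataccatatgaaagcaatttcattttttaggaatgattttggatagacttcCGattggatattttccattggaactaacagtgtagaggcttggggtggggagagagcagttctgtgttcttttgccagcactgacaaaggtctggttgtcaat
The median over 32851 promoters of this length was 7 CG (quartiles 3 and 20), 54.2% of them had fewer CG than that of Nkx2-5, 94.4% fewer than that of Isl1, and 5.43% fewer than that of Mef2c. A further pair of Mef2c starts had 10 and 4 CG. Gata5 and Tbx20 had 26 each and Hand2 had 17, and Gata4, Tbx5 and Hand1 had no entry. A motif of the GATA family, searched by the letters AGATAA on both strands and alone, so that no overlap with another motif arose, stood in the windows of Hand2 and Isl1, and in 11.2% of all promoters. The Nkx2-5 window lies inside the span that the annotation gives the gene, whose start lies further upstream. These letters describe the windows, no relation to the levels was tested, and methylation itself was not measured in these libraries.

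A list of 36 other heart regulators and a list of 26 cardiac target genes (sarcomere, calcium handling and conduction genes) place the members among their partners. Among the regulators, 2 rose and 11 fell in Dnmt1 KO over all kept cells, and their median log2 fold change was -0.31 where the median of all genes was 0.015. By role, 2 of 18 other transcription factors rose and 8 fell, 1 of 8 cofactors fell (Hopx, -1.72) and 2 of 10 signals fell (Fgf8 and Wnt11, -1.14). Among those that fell the most were Nkx2-6, a relative of Nkx2-5 in the pharynx, from 0.992 to 0.0507 CPM (log2 fold change -4.23), Tbx18, of the venous pole, from 2.19 to 0.226 (-3.26), Foxc2, of paraxial and pharyngeal mesoderm, from 15.2 to 2.36 (-2.61), and Fgf8, a signal of the pharyngeal region and tail bud, from 51 to 11.3 (-2.09). Fgf8 was also a marker and a leading gene of neuromesodermal progenitor-like cells, and in which cells it fell was not tested. Those that rose, named after their values were seen because they were so few, were Mesp1, the factor of the earliest cardiac mesoderm, and Irx4, of the ventricle, and each overlapped WT and rested on 1 embryo. Mesp1 was at 4.89, 4.80 and 21 CPM in Dnmt1 KO against 0.631 to 5.99 in WT (log2 fold change 2.05, edgeR adjusted p = 0.00475), and at 0.96 (edgeR adjusted p = 0.15) without embryo 3. Irx4 was at 2.77, 10.2 and 2.26 CPM against 1.64 to 3.28 (log2 fold change 1.29, edgeR adjusted p = 0.00755), and at 0.25 (edgeR adjusted p = 0.517) without embryo 2. Without the extraembryonic and erythroid classes Irx4 turned and was called lower in Dnmt1 KO (-1.59, edgeR adjusted p = 1.82e-05), whereas Mesp1 was called higher (2.47, edgeR adjusted p = 0.000406). The higher call of Irx4 was also lost without WT embryo 1, 3, 4, 6 or 7, with thinned libraries, with the joint reference as a covariate and with the replicate number as a block (edgeR adjusted p = 0.0119 to 0.0148, 0.014, 0.0116 and 0.0882). Its log2 fold changes were then 1.22 to 1.3, 1.16, 1.235 and 1.02, in that order. With the Y-linked covariate the calls of both genes were lost, at 3.21 for Mesp1 (edgeR adjusted p = 0.016) and 1.12 for Irx4 (edgeR adjusted p = 0.125). The 13 calls became 8 with the share of Y-linked counts as a covariate and without Dnmt1 KO embryo 2.

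Of the target genes, 13 of 26 fell and 0 rose in Dnmt1 KO, with a median log2 fold change of -1.88 and 24 negative values. The 5 largest among the called genes were the myosin heavy chains Myh6 (24.2 to 0.848 CPM, -4.77) and Myh7 (15.5 to 0.626, -4.59), cardiac actin Actc1 (207 to 16.7, -3.60), Smpx (4.11 to 0.356, -3.50) and the ventricular light chain Myl2 (12 to 1.49, -2.98). In Dnmt3a and Dnmt3b KO 0 genes of either list were called by edgeR and by DESeq2. At an unadjusted p under 0.05 there were 3 and 5 regulators and 0 and 8 targets, and the medians of the target genes were -0.12 in Dnmt3a KO and 0.33 in Dnmt3b KO.

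To look at Nkx2-5 in cells with sarcomere RNA, cells were taken by the summed level of 5 sarcomere genes, whatever their cluster. These were Myl7, Tnnt2, Actc1, Ttn and Myl4, with no member among them. At 2000 CPM or more of these genes, each WT embryo had 42 to 268 cells and the Dnmt1 KO embryos 42, 27 and 51. Within them Nkx2-5 was at 56.9, 48.9 and 49.2 CPM in Dnmt1 KO, against a lowest of 243, a median of 271 and a highest of 329 in WT. All 3 were far below all 7 WT values, with a log2 fold change of -2.34 (SE 0.15, edgeR adjusted p = 1.25e-09). Tbx20 was at 66.3, 52.3 and 47.4 CPM against 116 to 143 (median 130), also without overlap, and fell by 1.15 on the log2 scale (SE 0.16, edgeR adjusted p = 1.82e-05). These 2 of 9 members were called where 9.05% of all genes were. Of the WT cells of this set 72.3% were cardiomyocyte-like, against 2 of 120 Dnmt1 KO cells. Cell mixture and level per cell therefore cannot be told apart in this comparison of Nkx2-5 and Tbx20.

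The other 7 members did not pass in these cells. Gata4 was at 65.6, 50 and 54.5 CPM against 68.6 to 91.9 in WT, below all of them (log2 fold change -0.44, edgeR adjusted p = 0.01003). Hand2 was at 109, 123 and 126 CPM against 76.7 to 108, above all of them (0.42, edgeR adjusted p = 0.0252). Mef2c was at 599.9, 454 and 523 CPM against 241 to 647, inside the WT range (0.21), and Gata5, Tbx5, Hand1 and Isl1 lay between -0.31 (Tbx5) and 0.53 (Isl1) with ranges that overlapped WT.

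**Figure D4:**
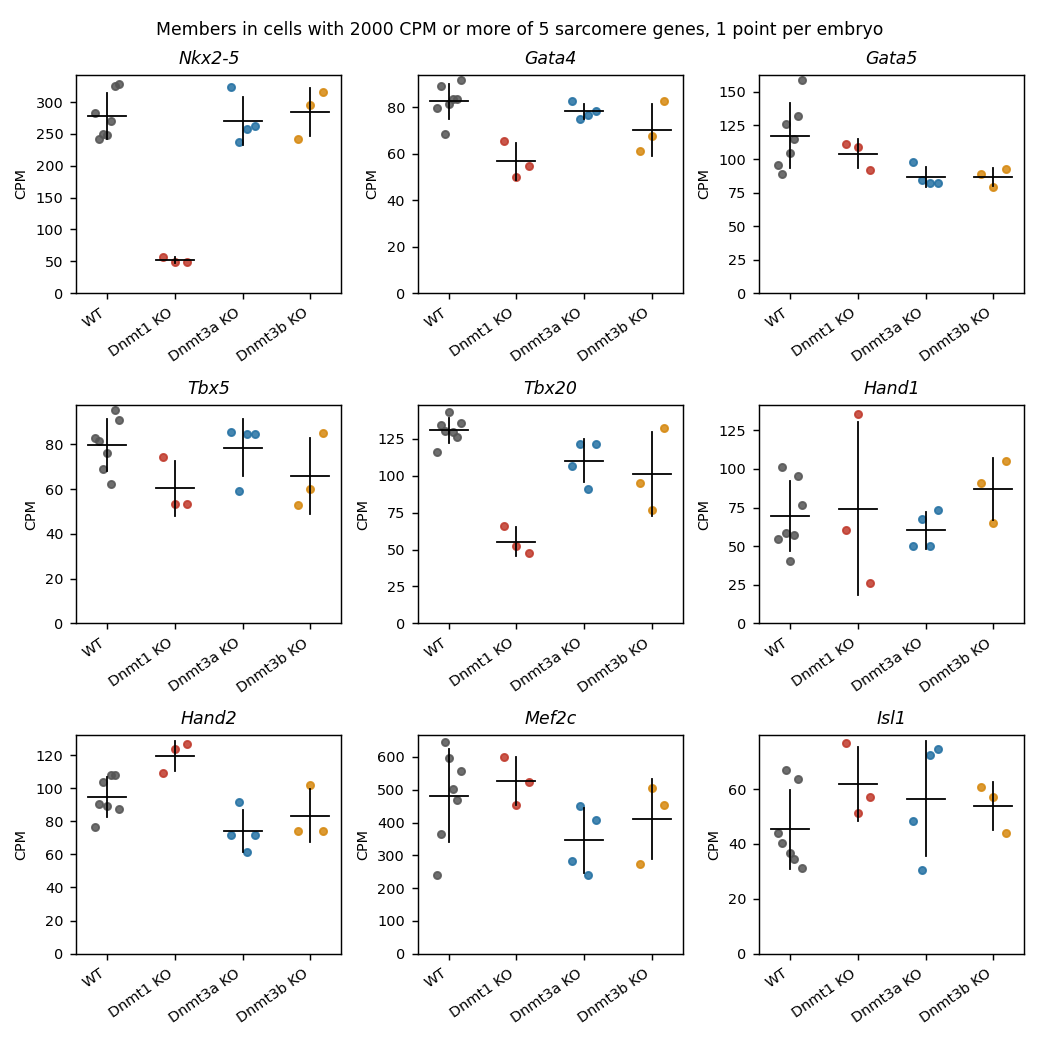
CPM of each member within cells with 2000 CPM or more of 5 sarcomere genes, with 1 point per embryo, a horizontal bar for the mean and a vertical bar for the SD. Dnmt1 KO points for Nkx2-5 lie at 48.9 to 56.9 CPM and for Tbx20 at 47.4 to 66.3, below every WT point, and those for Mef2c lie within the WT range.

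The cells reaching that level were not the same mixture in the groups. At 16000 CPM or more there were 32 to 206 cells per WT embryo and 2, 0 and 0 in Dnmt1 KO. Of the 120 Dnmt1 KO cells at 2000 CPM or more, 52 were in the Mesp1/Car3 cluster, which was 98.6% Dnmt1 KO, 31 in the Sfrp5/Lefty2 cluster, 15 ExE mesoderm-like and 2 cardiomyocyte-like. Of the 1011 WT cells at that level, 731 were cardiomyocyte-like and 215 in the Sfrp5/Lefty2 cluster. Between 2000 and 16000 CPM, where 118 of these cells remained, Nkx2-5 was at 53.4, 48.9 and 49.2 CPM against 69.8 to 190 in the 6 WT embryos with at least 20 such cells, still without overlap. The mixture was unlike here too: WT cells between these limits were 64.1% of the Sfrp5/Lefty2 cluster and 15.4% cardiomyocyte-like (48 cells), whereas Dnmt1 KO cells were 44.1% of the Mesp1/Car3 cluster, 26.3% of the Sfrp5/Lefty2 cluster and 12.7% ExE mesoderm-like, with no cardiomyocyte-like cell among them. In the Dnmt1 KO embryos 12 of 40, 19 of 27 and 27 of 51 of these cells were under 4000 CPM, and in WT 6 to 24 of 10 to 65. Cell mixture and Nkx2-5 level per cell cannot be told apart in this comparison. Its log2 fold change was -1.29 (SE 0.24, edgeR adjusted p = 0.002), 1 of 9 members where 2.64% of genes were called. The call was lost with the share of Y-linked counts as a covariate (-0.76, edgeR adjusted p = 0.185) and when any of the Dnmt1 KO embryos was left out (adjusted p of 0.0143 to 0.0161 at -1.27 to -1.32). Tbx20 in that range was at 66.5, 52.3 and 47.4 CPM against 56.2 to 82.1 in WT, overlapping it (-0.24, edgeR adjusted p = 0.511), and Isl1 at 76.4, 51.2 and 57.2 against 86.2 to 137 (-0.72, edgeR adjusted p = 0.101).

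In Dnmt3a and Dnmt3b KO, 0 of 9 members were called by edgeR in either set of cells, where 0.0597% and 0.725% of genes were called at 2000 CPM or more, and 0% and 0.33% between 2000 and 16000. At an unadjusted p under 0.05 there were 4 and 3 members at 2000 CPM or more and 1 and 2 between the limits, and DESeq2 called 0 in both sets of cells. The share of all genes under that unadjusted limit is not given, so no excess of members can be read from these counts. Nkx2-5 was at 237 to 324 CPM in Dnmt3a KO and 242 to 316 in Dnmt3b KO, inside the WT range of 243 to 329 but for 1 embryo in each. Gata5, of which WT had 88.9 to 159 CPM, was at 81.8 to 98.1 in Dnmt3a KO (log2 fold change -0.46, edgeR adjusted p = 0.26) and 79.5 to 92.5 in Dnmt3b KO (-0.44, adjusted p = 0.201).

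The number of muscle cells was compared as a share of each embryo's kept cells, by an exact two-sided permutation test. Cardiomyocyte-like cells were 1.43% to 2.94% of cells in WT (2.17% ± 0.517, n = 7), and 0.137% (2 of 1464 cells), 0% and 0% in Dnmt1 KO. The 0 of 3054 and 0 of 2550 cells allow shares of up to 0.0982% and 0.118%, which covers counting error only. The exact p was 0.0167, the smallest that 3 against 7 embryos allow, and 0.05 after adjustment over 6 such tests, which is not under the threshold of 0.05. Pharyngeal mesoderm-like cells were 2.37% ± 0.813 in WT and 0.0717% ± 0.0686 in Dnmt1 KO, with the same exact and adjusted p. Both Dnmt1 KO tests were at the smallest possible p, so they could not have passed without low p-values in the other groups. Several clusters were almost wholly Dnmt1 KO, so the share of a named class there also depends on where cells were placed. Whether the low shares reflect placement or fewer cells of a type was not tested. In Dnmt3a and Dnmt3b KO the cardiomyocyte-like share was 1.48% ± 0.656 and 2.86% ± 0.767, with adjusted exact permutation p of 0.182 and 0.275.

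Taken without cluster names, cells at 2000 CPM or more of the sarcomere genes were 2.96% ± 0.552 in WT and 1.92% ± 0.995 in Dnmt1 KO (exact p = 0.0667, 0.133 after adjustment over 12 tests added after the data were seen). The part between 2000 and 16000 CPM was 0.903% ± 0.192 in WT and 1.87% ± 0.931 in Dnmt1 KO (exact p = 0.0667), and the part at 16000 CPM or more 2.05% ± 0.518 and 0.0455% ± 0.0789 (exact p = 0.0167). None of the 12 was under 0.05 after adjustment. An exact p of 0.0167 is the smallest that 3 against 7 embryos allow. Low values in Dnmt1 KO alone therefore could not have passed, and the adjusted values decide nothing about that group. The Sfrp5/Lefty2 cluster held 2.44% ± 0.791 of WT cells and 1.57%, 0.0327% and 0.275% of the cells of Dnmt1 KO embryos 1, 2 and 3, so embryo 1 lay inside the WT range of 1.25% to 3.14% and embryo 2 contributed 1 cell. Its 31 Dnmt1 KO cells had Nkx2-5 at 73.4 CPM, Isl1 at 80.7, Hand2 at 124 and Mef2c at 752, beside 57.1, 118, 123 and 192 in the WT cells of the cluster, and they were too few per embryo for a test. These are not like cells, since all 31 had 2000 CPM or more of the sarcomere genes and 215 of 867 WT cells of the cluster (24.8%) did. In Dnmt3b KO the cluster held 3.72% ± 1.06 of cells, and cells at 2000 CPM or more were 4.2% ± 1.15. Their exact permutation p were 0.05 and 0.0667, each 0.133 after adjustment. In Dnmt3a KO these shares were 2.44% ± 1.12 and 2.38% ± 0.844 (adjusted exact permutation p of 0.853 and 0.167). Whether these shares bear on the whole-embryo levels was not tested.

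**Figure D5:**
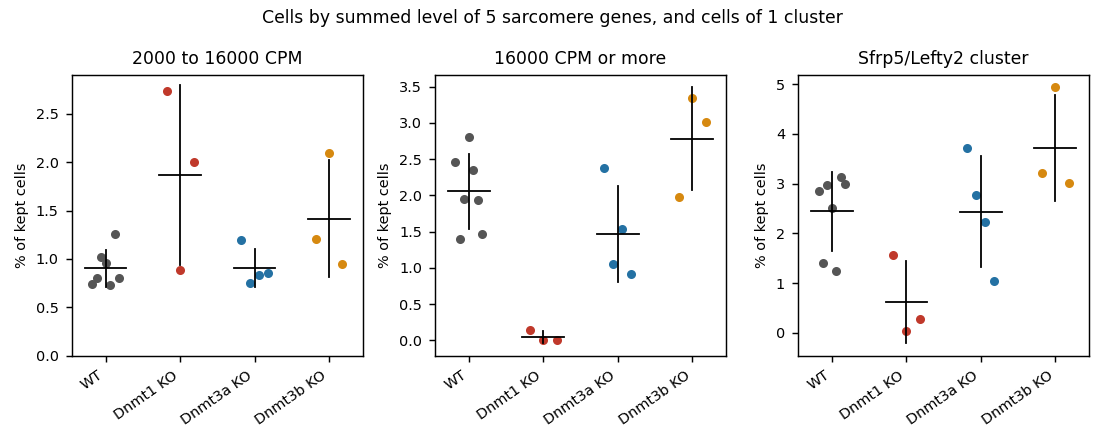
Percent of kept cells per embryo with 2000 to 16000 CPM of 5 sarcomere genes, with 16000 CPM or more, and in the Sfrp5/Lefty2 cluster, with the group mean and SD. Dnmt1 KO embryos lie at 0% to 0.137% in the middle panel, against 1.4% to 2.81% in WT, and at 0.884% to 2.73% in the left panel.

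Within classes, members were tested where at least 3 embryos per group had 25 cells or more. In Dnmt1 KO this left 5 classes, ExE mesoderm-like, ExE endoderm-like, endothelium-like, gut endoderm-like and immune-like, and neither cardiomyocyte-like cells nor the Sfrp5/Lefty2 cluster. Of 34 pairs of a member and a class, 6 were called, where 7.54% of all pairs of a gene and a class were. In Dnmt3a KO 0 of 130 pairs were called by edgeR (27 at an unadjusted p under 0.05, 0 by DESeq2) and in Dnmt3b KO 2 of 129, where the background was 0.102% and 0.608%.

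Mef2c and Isl1 were higher in the cells named ExE mesoderm-like in Dnmt1 KO. Mef2c was at 35.6, 27.8 and 66.4 CPM, all above the WT range of 5.74 to 13.5 (median 7.89), with a log2 fold change of 2.44 (SE 0.27, edgeR adjusted p = 9.28e-07). Isl1 was at 8.53, 5.55 and 8.71 CPM, above the WT range of 0.273 to 1.73, with a log2 fold change of 3.28 (SE 0.46, edgeR adjusted p = 1.63e-05); the Dnmt3b KO embryos had 3.09, 4.15 and 1.16 CPM. Hand1 was at 487, 449 and 307 CPM, below all WT embryos (604 to 927), with a log2 fold change of -0.76 that was short of 2-fold (SE 0.13, edgeR adjusted p = 0.000179). Tbx20 was likewise at 45.1 to 63.6 CPM against 72.4 to 94.1 (-0.52, edgeR adjusted p = 0.00202). Different clusters stood for this class in the groups: 99.6% of its Dnmt1 KO cells were in a cluster led by Tdo2 and Stard8, which held 2.47% of the WT cells, while WT cells were in clusters led by Lum (55.3%) and Postn (42.3%). The Tdo2 cluster was named at a marker score of 1.06, just over the limit of 1, and the Lum and Postn clusters at 2.85 and 2.54. Cell identity and level per cell cannot be told apart in this comparison. The 26 WT cells of the Tdo2 cluster had Mef2c at 19.3 CPM and Isl1 at 4.82, between the WT and Dnmt1 KO levels of the class. Leaving out the cells with 1000 CPM or more of sarcomere genes left Mef2c at 1.85 and Isl1 at 3.33 on the log2 scale, and both stayed called. The sum of the sarcomere genes was then 243 to 291 CPM in Dnmt1 KO, inside the WT range of 156 to 299, and with those cells 327 to 403 CPM against 168 to 329 (Dnmt3a KO 126 to 200, Dnmt3b KO 198 to 267). Sarcomere RNA thus remained in these cells, in WT too, and its part in the result was not tested.

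Mef2c was lower in the endothelium-like and immune-like cells of Dnmt1 KO. In endothelium-like cells it was at 33.9, 21.8 and 18.9 CPM in Dnmt1 KO against 55.9 to 84.8 in WT (log2 fold change -1.36, SE 0.27, edgeR adjusted p = 0.00084). In immune-like cells it was at 43.9, 31 and 55.4 CPM against 143, 155 and 197 in the 3 WT embryos with enough cells (-1.79, SE 0.33, edgeR adjusted p = 0.00307). Neither overlapped WT, and Mef2c is a regulator of both lineages. The endothelial call was lost with the Y-linked covariate and without Dnmt1 KO embryo 3, and the immune call with the covariate and without either of WT embryos 1 and 2 or Dnmt1 KO embryos 1 and 2. Immune-like cells came from a single cluster, which also scored high for megakaryocyte markers (4.72, against 6.03 for immune markers). Its mixture of cells was not compared between the groups. Of endothelium-like cells, 77% in Dnmt1 KO were in a cluster led by Lyve1 and Gngt2 against 51.5% in WT. Cell identity and level per cell cannot be told apart in either class.

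Nkx2-5 was low in endothelium-like cells and higher in Dnmt1 KO, at 11.3, 10.4 and 7.31 CPM against a WT median of 1.83. WT embryo 5, at 11.7 CPM, overlapped the KO embryos, and the log2 fold change of 2.07 (SE 0.48, edgeR adjusted p = 0.00314) rested on 40 UMIs in Dnmt1 KO. It was lost with the Y-linked covariate and when any Dnmt1 KO embryo was left out. Sarcomere genes moved with it: their sum was 248 to 323 CPM in the Dnmt1 KO and 35.2 to 153 in the WT endothelium-like cells, and without cells at 1000 CPM or more the log2 fold change of Nkx2-5 was 1.88 (edgeR adjusted p = 0.00111) with the sum at 133 to 192 against 30 to 80.6. The part of sarcomere RNA in this result was not tested.

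In gut endoderm-like cells Nkx2-5, which is known there from the pharyngeal floor and the later pylorus, was at 0, 0 and 0.542 CPM in Dnmt1 KO, against 15.4 to 26.1 CPM in WT (median 21.5). That is 1 UMI in 112 Dnmt1 KO cells and 1187 UMIs in WT, a ratio of 117 with a 95% counting interval of 21 to 4630 (edgeR adjusted p = 2.35e-08). The WT counts were concentrated in a cluster led by Igfbp5, Pax9 and Nkx2-3, with 66.6 CPM of Nkx2-5 and 9 to 110 cells per WT embryo, of which Dnmt1 KO embryos had 0, 4 and 2 cells. Outside that cluster Nkx2-5 was at 3.02 CPM in WT and 0.186 in Dnmt1 KO, a ratio of 16.5 with a 95% counting interval of 2.91 to 657, and the call was lost. Isl1, which shares that cluster (142 CPM in WT), was at 25.7, 96.5 and 55.8 CPM in gut endoderm-like cells of Dnmt1 KO against 41.4 to 80.2 in WT, overlapping it (0.03, edgeR adjusted p = 0.946).

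The called pairs in Dnmt3b KO were Gata5 in the Hoxd1/Cdx4 cluster and Hand1 in hindbrain and spinal cord-like cells, and each gene was low there. By markers the Hoxd1/Cdx4 cluster scored highest for allantois, and a tie in its leading genes left it unnamed. Gata5 was at 3.67, 9 and 2.32 CPM against 0.493 to 1.81 in WT (log2 fold change 1.93, SE 0.37, edgeR adjusted p = 0.00709). Hand1 was at 4.23, 2.91 and 3.79 CPM against 0.373 to 1.94 (1.66, SE 0.30, edgeR adjusted p = 0.00601). Neither overlapped WT, and the 4 Dnmt3a KO embryos had Gata5 at 2.03 to 4.26 CPM and Hand1 at 1.84 to 3.69 CPM without passing. Of 27 alternative settings, 14 kept the Gata5 call and 18 the Hand1 call, and both were lost with the replicate number as a block. The Gata5 call was also lost with the joint reference as a covariate, without either of the libraries labelled Dnmt3b KO 11 and 12, without Dnmt3a KO embryo 1 and without any 1 of WT embryos 2 to 7. The Hand1 call was also lost with the Y-linked covariate, without the library labelled Dnmt3b KO 11, without the joined Dnmt3b KO libraries 1 and 2, without Dnmt3a KO embryo 1 and without WT embryo 1, 5, 6 or 7, and held without the library labelled Dnmt3b KO 12 (1.81, edgeR adjusted p = 0.00869). Sarcomere genes moved with both calls: without cells at 1000 CPM or more, their sum was 29.9 to 71.3 CPM in the 4 Dnmt3b KO libraries and 16 to 26.7 in WT in the Hoxd1/Cdx4 cluster, and 35.4 to 65.3 against 12.4 to 27.5 CPM in hindbrain and spinal cord-like cells. Both calls were made without those cells too (Gata5 1.97, edgeR adjusted p = 0.00622; Hand1 1.67, edgeR adjusted p = 0.00514). The part of the remaining sarcomere RNA in these results was not tested.

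Cardiomyocyte-like cells and the Sfrp5/Lefty2 cluster could be tested in Dnmt3a and Dnmt3b KO, and no member was called in either. Nkx2-5 in cardiomyocyte-like cells was at 358 ± 55.3 CPM in Dnmt3a KO (n = 4) and 365 ± 38.9 in Dnmt3b KO (n = 3), against 343 ± 48.2 in WT, differences of 0.07 and 0.08 on the log2 scale with SEs of 0.13 and 0.14. Gata5 had the lowest adjusted p of the members there in both groups, at 85.5 ± 7.28 and 91.3 ± 2.21 CPM against 122 ± 26.7 (log2 fold changes of -0.51 and -0.42, edgeR adjusted p of 0.272 and 0.294). Mef2c was at 362 ± 121 and 447 ± 125 CPM against 523 ± 174. In the Sfrp5/Lefty2 cluster Isl1 was at 110 ± 25.5 and 103 ± 9.1 CPM against 118 ± 21.1 in WT, and Hand2 at 98.1 ± 3.57 and 112 ± 18.2 against 124 ± 13.7, the Dnmt3a KO embryos lying below all WT embryos (-0.37, edgeR adjusted p = 0.288).

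The genes most like each member in their mean log2(CPM + 1) over 17 named classes of WT embryos were listed among 10508 genes that reached 10 CPM in a class, as a description only. The classes come from the same libraries and clusters. For Nkx2-5 they were Myh7 (Pearson r = 0.952), Lhfpl1 (0.92) and Myl3 (0.916), and for Tbx5 they were Ryr2 (0.956), Hcn4 (0.954) and Sh3bgr (0.945). Members stood beside members: Gata5 and Tbx20 had r = 0.962, and Hand1 and Hand2 had r = 0.919. For Hand2 the nearest were the noncoding 5033428I22Rik (0.983) and Gm34030 (0.932), whose annotated genes lie 7485 and 7059 bases from it, so counts of neighbouring transcripts are uncertain. Gata4 was nearest to Gata6 (0.9), Isl1 to Has2 (0.87) and Mef2c, the least alike, to Rasa3 (0.848).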

How the data were processed

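Single-cell RNA-seq (10x Genomics 3′ chemistry) of 18 libraries, each from 1 mouse embryo, was taken as the UMI counts per gene and barcode that the authors deposited, made with Cell Ranger 3.1.0 in 17 libraries and 5.0.0 in 1 according to the submitters' processing notes and file headers, 4 of them on a joint human and mouse reference. The counts were not normalized by the authors. Raw counts of barcodes with at least 1500 mouse UMIs, at most 30% mitochondrial and 35% ribosomal counts were used after doublets were predicted with Scrublet at 0.8% per 1000 cells and 7924 cells were removed. Up to 1500 cells per library were clustered (scanpy 1.11.5, Leiden with leidenalg 0.10.2, Python 3.11.15, 2500 variable genes, 50 components, 30 neighbours, resolution 2) without the members and Y-linked genes, and the other cells took the cluster of their neighbours. Classes were named from marker lists, with naming limits set after the scores were seen.

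Counts were summed per sample, class or set of cells and tested with edgeR 4.0.16 (limma 3.58.1, R 4.3.3) by the quasi-likelihood test with filterByExpr and TMM in 1 fit over the 4 groups, with Benjamini-Hochberg adjustment over all genes. Calls needed an adjusted p under 1% and a 2-fold change. Classes needed 25 cells per embryo and 3 embryos per group, and sets of sarcomere-rich cells 20 cells per embryo and 10 UMIs of the sarcomere genes per cell. Shares were tested on log2 percent after 0.5 cells were added to each count. DESeq2 1.42.0 and other settings were alternatives. The edgeR fits of the whole embryo and of endothelium-like cells were tested on simulated counts with known changes. Named genes were the members, up to 5 called genes of a list with the largest change (1 of them and 1 cluster are not reported here), the 3 genes most like each member, and member and class pairs that were called or among the 2 highest classes. The members and lists were chosen with earlier results of these data known. The labels name separate embryos and no litters, so p-values measure the spread between these samples. The total of UMIs per library limits precision, and intervals on counts cover counting error only.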

Additional observations from a re-analysis of the deposited data

Results flagged for a closer look

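Of 84 groups of 4 to 10 samples examined, 6 held a sample whose gap to its neighbours was large for the group's range, 7.14% where chance gives about 1 in 20. In cells with 2000 CPM or more of sarcomere genes these were Gata5 in Dnmt3a KO embryo 1 (98.1 CPM, above the others) and Tbx5 in Dnmt3a KO embryo 2 (59.3 CPM, below the others). In cardiomyocyte-like cells they were Gata4 in Dnmt3a KO embryo 13 (70.3 CPM, low), Tbx20 in WT embryo 1 (132 CPM, low), Isl1 in Dnmt3a KO embryo 14 (32 CPM, high) and Isl1 in WT embryo 3 (45.5 CPM, high).

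In Dnmt1 KO, Mef2c had log2 fold changes of opposite sign in 3 classes, 2.44 in ExE mesoderm-like, -1.36 in endothelium-like and -1.79 in immune-like cells. Nkx2-5 likewise had 2.07 in endothelium-like cells and a fitted -6.65 in gut endoderm-like cells, the latter resting on 1 UMI in Dnmt1 KO and dependent on the prior count. The differences between classes were not tested.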

How the results depend on the processing

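No call of a single member over the whole embryo changed under any alternative. Of the 676 comparisons of counts and shares with an alternative, 27 moved. The 13 other heart regulators called in Dnmt1 KO became 8 with the share of Y-linked counts as a covariate. Member and class pairs in Dnmt1 KO (6) became 10 with DESeq2, 11 with no filter on low counts and 2 with at least 50 cells per embryo. In Dnmt3a KO (0) they became 2 with no filter. In Dnmt3b KO (2) they became 4 with DESeq2, 5 with no filter, and 1 with at least 50 cells, with the Y-linked covariate and with the joint reference as a covariate. Between 2000 and 16000 CPM of sarcomere genes, the 1 member called in Dnmt1 KO became 0 with the Y-linked covariate. The causes were not tested, beyond the fewer classes that 50 cells leave and the more genes tested with no filter. Leaving out 1 library at a time gave 8 to 15 regulators in Dnmt1 KO (8 without Dnmt1 KO embryo 2), 0 to 1 target genes in Dnmt3b KO (1 without WT embryo 1), 0 to 2 pairs in Dnmt3b KO and 0 to 1 members between 2000 and 16000 CPM. The pairs fell to 0 without WT embryos 5, 6 or 7, Dnmt3a KO embryo 1 or the library labelled Dnmt3b KO 11. Without the Pax9 cluster, a setting chosen like the sarcomere limits and the left-out extraembryonic classes after seeing the data, Gata4 in gut endoderm-like cells of Dnmt1 KO (-1.47, edgeR adjusted p = 0.00508) and Nkx2-5 in those of Dnmt3b KO (1.66, edgeR adjusted p = 0.00398) were called. The lower limit of 4000 CPM left too few Dnmt1 KO cells for a test.

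Replicate numbers do not pair the embryos: of 13 pairs of samples with the same number, 3 had a correlation of their deviations over 0.1 (range -0.245 to 0.204), and 0 of 10 libraries correlated best with their own number. With the replicate block, 8 regulators were called in Dnmt1 KO and 0 pairs in Dnmt3b KO.

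The sign of a value that was not called changed in 72 comparisons, of which 30 left out no library. Without the extraembryonic and erythroid classes the log2 fold changes in Dnmt1 KO became -0.33 for Hand1, 0.029 for Tbx5 and 0.46 for Isl1, and in Dnmt3a KO -0.065 for Gata4, -0.25 for Gata5, -0.073 for Tbx5, -0.15 for Tbx20, -0.18 for Hand2 and 0.077 for Isl1. With the Y-linked covariate they became, in Dnmt3a KO, 0.0075 for Nkx2-5, -0.0080 for Gata4, -0.062 for Gata5, -0.14 for Tbx5, -0.12 for Tbx20, 0.16 for Mef2c and 0.056 for Isl1, and with the joint reference 0.0076 for Mef2c and 0.051 for Isl1. With the replicate block, Nkx2-5 (0.21), Mef2c (0.22) and Isl1 (0.39) turned in Dnmt3a KO and Gata5 (-0.029) and Hand2 (-0.048) in Dnmt1 KO. With no filter on low counts, Hand2 was at -0.017 in Dnmt1 KO and Isl1 at 0.032 in Dnmt3a KO, where Isl1 (-0.0016 as reported) was also at 0.0079 with barcodes of 1500 UMIs or more, 0.0016 with the joined libraries apart and 0.038 with thinned libraries. Among named cells that are neither erythroid nor extraembryonic, the log2 ratios of shares in Dnmt3a KO were 0.20 for the Sfrp5/Lefty2 cluster and 0.26 for cells with 2000 to 16000 CPM.

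With 1 library left out at a time, signs turned within these ranges. In Dnmt1 KO they were -0.35 to 0.56 for Gata5, -0.72 to 0.19 for Tbx5, -0.21 to 0.13 for Tbx20, -0.48 to 0.38 for Hand2, -0.13 to 0.93 for Mef2c and -0.75 to 0.20 for Isl1. In Dnmt3a KO they were -0.050 to 0.22 for Gata4, -0.048 to 0.15 for Gata5, -0.022 to 0.17 for Tbx5, -0.057 to 0.059 for Hand2 and -0.048 to 0.061 for Isl1. For shares in Dnmt3a KO they were -0.32 to 0.29 (Sfrp5/Lefty2 cluster), -0.19 to 0.38 (pharyngeal mesoderm) and -0.14 to 0.083 (2000 to 16000 CPM). In Dnmt3b KO they were -0.068 to 0.30 for Tbx5 and -0.13 to 0.49 for Mef2c.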
